A study of Mus musculus with 2 samples.

Results

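Replication-dependent histone genes encode the H1, H2A, H2B, H3 and H4 proteins that package newly copied DNA. The protein-coding genes of GENCODE vM21 (GRCm38) whose symbols begin with Hist1h, Hist2h, Hist3h or Hist4h were taken as members, which gave 67 of 21938 protein-coding genes. There are 18 H2A, 18 H2B, 13 H4, 12 H3 and 6 H1 genes. On chromosome 13 lie 54 Hist1h genes, on chromosome 3 lie 10 Hist2h genes, on chromosome 11 lie 2 Hist3h genes and on chromosome 6 lies Hist4h4. CpG sites were kept in 3 classes, which are sites inside a member, sites outside but within 1 kb of one, and sites further than 1 kb from any member but between the members of a chromosome 13 cluster. Members under 100 kb apart were joined, giving 4 chromosome 13 clusters of 18, 5, 29 and 2 genes. The last of these holds only Hist1h2ba and Hist1h2aa.

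Histone genes of this kind are transcribed mainly in S phase. Their mRNAs end in a conserved stem-loop in place of a poly(A) tail, and the stem-loop is bound by SLBP. Many are arranged head to head, so that an H2A and an H2B gene share the DNA between their start sites. Most carry CpG-rich, unmethylated promoters, and a few members (Hist1h1t, Hist1h2aa and Hist1h2ba, for H1t, TH2A and TH2B) are known for expression in male germ cells.

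SCoTCH-seq, which reads C, mC and hmC on both strands of a fragment together, was applied to genomic DNA of E14 mESCs, an established mouse embryonic stem cell line, grown with serum and LIF on gelatin. The 2 libraries, replicate 1 and replicate 2, come from different passages of the same line in 1 condition, so their spread may be partly technical and no test between groups was possible. A CpG state names the modification on both strands, so that CC is unmodified, MM symmetrically methylated, MC/CM hemimethylated, HC/CH has hmC opposite C, HM/MH has hmC opposite mC, and HH has hmC on both strands. A call is the state of 1 CpG in 1 read pair, so a read pair over several CpGs gives several calls. Levels are percentages of all calls summed over the sites of a region, and only sites with at least 5 calls were deposited.

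Across the genome, replicate 1 held 13676795 sites at a mean depth of 10.5 calls and replicate 2 held 4918612 at 6.36. On unmethylated pUC19 DNA, 99.7% of calls in replicate 1 and 99.4% in replicate 2 were CC, and 0.0344% and 0.0859% were HC/CH. On synthetic duplex sites known to be CC, HC/CH was called at 0.154% and 0.206%, with at most 0.217% and 0.325% at any such site. On duplex sites known to be MM, HM/MH was called at 4.51% in replicate 1 and 0.467% in replicate 2, so uncorrected HM/MH levels of methylated DNA in replicate 1 include such calls. Intervals in brackets are exact Clopper-Pearson 95% intervals, which cover counting error only. They treat all calls as independent, although calls at neighbouring CpGs can come from the same read pair, so they can be too narrow. CC was at least 80% within 1 kb of the TSS at 4 of 5 pluripotency genes in both replicates (Pou5f1, Nanog, Sox2 and Zfp42), with Esrrb below. Nanog stood at 80.1% in replicate 1. Of all protein-coding genes, 52.7% and 57% met this rule, so these 5 genes do little to check the identity of the cells.

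The members had the sequence features of their family. A stem-loop was sought on the sense strand in the 120 bases after each annotated coding exon. It was defined as a stem of GGCTCT or GGCCCT, a loop of any 4 bases, and the reverse complement of the stem (AGAGCC or AGGGCC). It was found in 63 of 67 members (94.0%), against 82 of all 21938 protein-coding genes (0.374%), which include the members. Genes with several coding exons had several such windows, so a match in them can lie before the end of the coding sequence. The GGCTCT stem was found in 52 members, none of them H4, and the GGCCCT stem in 11, each of them H4. One stem-loop of each histone class is shown with those of the male germ cell genes, with stem and loop in capitals and 5 bases on each side.
Hist1h1c (H1), chr13:23739507-23739532, plus strand: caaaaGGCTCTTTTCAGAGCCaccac
Hist1h2bj (H2B), chr13:22043633-22043658, plus strand: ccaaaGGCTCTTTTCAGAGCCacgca
Hist1h3d (H3), chr13:23576239-23576264, plus strand: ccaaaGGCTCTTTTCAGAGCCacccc
Hist1h4d (H4), chr13:23581945-23581970, plus strand: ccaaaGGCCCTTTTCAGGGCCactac
Hist1h2aa (TH2A), chr13:23934886-23934911, plus strand: aaaaaGGCTCTTTTCAGAGCCacctt
Hist1h2ba (TH2B), chr13:23933725-23933750, minus strand: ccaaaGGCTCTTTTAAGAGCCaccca
Hist1h1t (H1t), chr13:23696520-23696545, plus strand: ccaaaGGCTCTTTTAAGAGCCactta
These sequences, like the others printed here, were read from the RefSeq copy of GRCm38.p6. The 3 germ cell genes carried the same stem as the other H1, H2A and H2B members in which a stem-loop was found.

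In the promoters, RefSeq held the 250 bases before the start of 62 members. The octamer ATTTGCAT, which binds Oct proteins, was present on either strand in 7 of 18 H2A and 6 of 16 H2B promoters and in none of the H1, H3 and H4 promoters. It was present in 1.61% of all 27025 RefSeq promoters of the same length. The letters CCAAT were found on either strand in every H1, H2A and H2B promoter, in 8 of 10 H3 and in 3 of 12 H4 promoters, and in 34.5% of all promoters. TATAAA was found on either strand in 29 of the 62 and in 13% of all. Each motif was counted on its own, whether or not it overlapped another. Head-to-head H2A and H2B genes share much of these bases, so a motif between them can be counted for both genes. The median number of CpGs in these 250 bases was 9.5 for the members, with a range from 2 to 34, and 6 for all promoters.

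Few CpGs were covered where the surrounding sequence, after C-to-T conversion, had an identical copy among the members or their flanks. The reference holds 3628 CpGs inside members, of which 825 (22.7%) were covered in replicate 1 and 310 (8.54%) in replicate 2, whereas 62.5% and 22.5% of all genomic CpGs were covered. For each CpG, the window of 50 bases on either side of it was compared, after C-to-T conversion of either strand, with every window in the members and their 1 kb flanks. Only identical windows counted as copies, so a single-copy window can still have a near-identical one elsewhere. Of 1931 CpGs inside members whose window occurred 2 or more times, 11 were covered in replicate 1 and 2 in replicate 2. Of 1697 whose window occurred once, 814 (48.0%) and 308 (18.1%) were covered. Within 1 kb, 2 and 0 of 301 repeated CpGs were covered, against 759 and 343 of 1385 single-copy CpGs. The coding sequence held a median of 10.8 CpGs per 100 bases in members and 2.70 in all protein-coding genes.

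**Figure D1:**
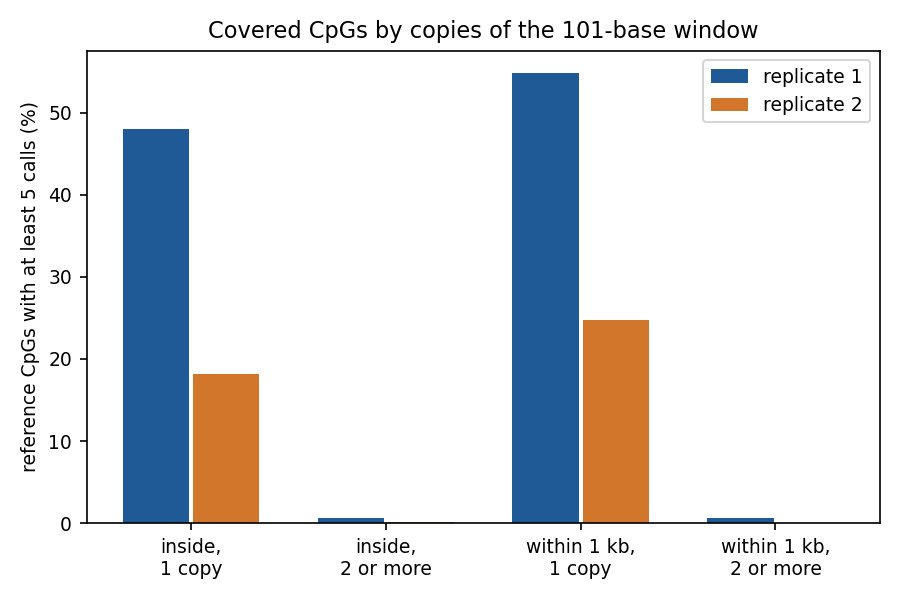
Share of reference CpGs with at least 5 calls (y axis, %), by site class and by how often the converted window around the CpG occurs among the members and their flanks, with 1 bar per replicate. Single-copy CpGs were covered at 48.0% and 18.1% inside members, and repeated CpGs at 0.570% and 0.104%.

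The window shared by most members is shown as an example, with CpGs in capitals. It lies in the coding sequence of Hist1h2ab and was identical in 13 H2A genes (Hist1h2ab, ac, ad, ae, af, ag, ah, ai, an, ao and ap, and Hist2h2aa1 and Hist2h2aa2).
Hist1h2ab, chr13:23751313-23751413, minus strand: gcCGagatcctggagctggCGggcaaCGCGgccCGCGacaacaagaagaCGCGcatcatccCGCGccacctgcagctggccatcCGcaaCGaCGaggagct
It holds 13 CpGs. None of its CpGs was covered in any of the 13 genes in either replicate, so the calls described for H2A genes come from outside it.

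In all, 47 of 67 members had a covered site inside or within 1 kb in at least 1 replicate. No site was covered at the other 20, which are the 10 Hist2h genes and the neighbouring Hist1h1b, Hist1h3i, Hist1h2an, Hist1h2bp, Hist1h2bq, Hist1h2ao, Hist1h4m, Hist1h4n, Hist1h2ap and Hist1h2br. These genes lie in stretches without any covered site, 94.1 kb long on chromosome 13 with 1745 reference CpGs and 92.2 kb long on chromosome 3 with 1715. The first also takes in Hist1h2ak and Hist1h2bn, whose only covered sites lay within 1 kb. In these stretches, 334 of 1175 reference CpGs inside members and 402 of 628 within 1 kb had a single-copy window, and none of those was covered either, whereas elsewhere 59.7% and 22.6% of single-copy CpGs inside members were. The authors had removed blacklisted regions before deposit, and whether these stretches belong to them was not tested. No calls inside the histone genes of these stretches could be analysed, and Hist1h2ak and Hist1h2bn enter only through their covered sites within 1 kb.

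Where coding sequence could be read, it was almost wholly unmodified. CC made up 97% [96.1 to 97.7] of 1938 calls at 253 coding CpGs in replicate 1 and 96.3% [94.4 to 97.7] of 544 calls at 84 CpGs in replicate 2, a mean of 96.6% ± 0.447 (SD, n = 2). These sites are 9.79% and 3.25% of the 2584 coding CpGs of the members, so most coding sequence was not read. In replicate 1 they were 95 of 459 in H4 and 77 of 225 in H1 genes. In H2A, H2B and H3 genes they were 37 of 745, 33 of 585 and 11 of 570. In the coding sequence of all protein-coding genes, CC was 30.9% and 27.5%, and MM was 49.6% and 53.7%. Of 34 members with covered coding CpGs in replicate 1, 25 held nothing but CC calls, as did 15 of 18 in replicate 2. In both, 1 covered site was enough to be counted, and 1.18% and 2.45% of all protein-coding genes met this rule. Their median number of covered coding sites was 24 and 9, beside 4 and 2 for the members. Among single-exon genes of at most 2 kb, whose medians were 6 and 3 sites, 11.6% and 15% met it, beside 23 of 30 and 12 of 15 members of that kind. Only 15 coding calls were HC/CH in replicate 1, 12 of them in the 3 germ cell genes, and 8 in replicate 2, 7 of them in those genes. Hist1h1t held 9 of the 12 in replicate 1, whereas Hist1h2aa held 6 of the 7 in replicate 2. Without these genes HC/CH in coding sequence was 0.176% [0.0363 to 0.513] and 0.214% [0.00542 to 1.19]. The duplex sites known to be CC gave 0.154% and 0.206%. No HM/MH call remained in either replicate, which, at a floor of 3 calls, allows a level of up to 0.176% in replicate 1 and 0.642% in replicate 2.

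Over whole annotated members, CC was 70.8% in replicate 1 and 70.7% in replicate 2 (mean 70.7% ± 0.0674, SD, n = 2), MM was 18.5% and 18.8%, HC/CH was 2.70% and 2.80%, and HM/MH was 1.36% and 0.700%. This level rests on a few long gene models. The median member is 539 bp long, but Hist1h2be is annotated over 37.5 kb, with an intron that spans Hist1h1e, and without its sites CC was 84.6% and 83.5% (mean 84% ± 0.845, SD, n = 2). Within 1 kb of the members CC was 87.0% and 85.8% (mean 86.4% ± 0.828) and HC/CH was 1.64% and 1.36%. Between the genes of the chromosome 13 clusters CC was 26.9% and 25.1% (mean 26.0% ± 1.28), MM was 48.5% and 49.8%, and HC/CH was 5.43% and 4.52%. Over the whole genome CC was 22.1% and 19.5%, MM was 55.9% and 59.6%, and HC/CH was 4.06% and 3.66%. The difference in CC between the flanks and the DNA between genes was far larger than the spread between replicates.

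**Figure D2:**
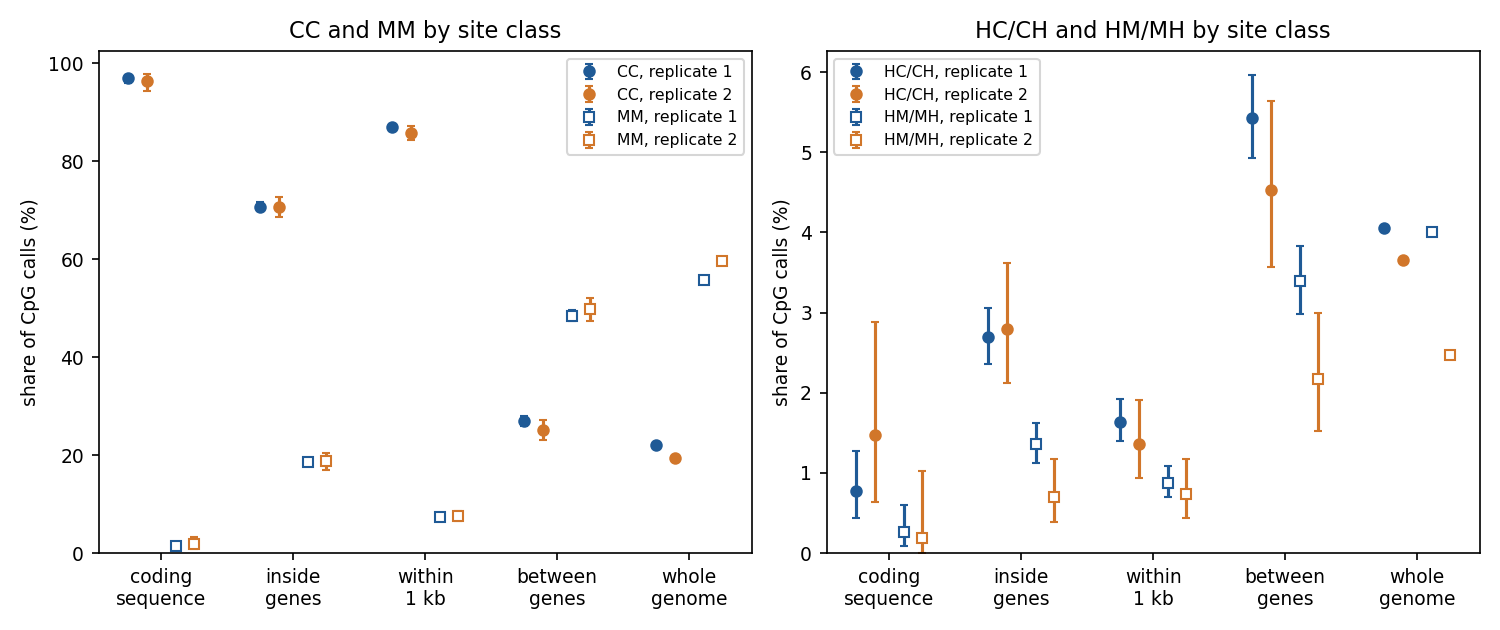
Levels of CC and MM (left) and of HC/CH and HM/MH (right) as a share of calls (%) in 4 site classes and the whole genome. Points are single replicates and bars exact 95% intervals for counting error; CC falls from 97% and 96.3% in coding sequence to 26.9% and 25.1% between genes.

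Counted gene by gene, 10 of the 15 members with at least 5 covered sites in both replicates had CC of at least 80% inside the gene in both. Of all 19181 protein-coding genes with as many sites, 3.23% met this rule. In replicate 1 alone it was met by 25 of 31 members and by 4.41% of all genes. Gene length and exon number bear on this count, since 62 of 67 members have a single exon in every transcript. Among single-exon protein-coding genes of at most 2 kb, 40.9% met the rule in both replicates and 32.5% in replicate 1, beside 8 of 9 and 23 of 25 members of that kind. In the first 500 bp from the TSS the shares were closer. There 6 of 7 members met the rule in both replicates and 22 of 25 in replicate 1, against 86.5% and 78.5% of all protein-coding genes. The median CC was 98.8% and 94.2% over member gene bodies, beside 26.1% and 22.2% over all gene bodies, whereas in the first 500 bp it was 99.5% and 100% for members and 99.1% and 100% for all.

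By histone class, H3 and H4 genes had the highest CC. In replicate 1, 24 of 44 members with at least 1 covered site held only CC calls inside the gene, and in replicate 2 16 of 30 did, beside 0.299% and 0.586% of all protein-coding genes. Genes with fewer covered sites meet this rule more easily, and the median was 7 and 4.5 sites in members and 153 and 59 in all genes. Among single-exon genes of at most 2 kb, with medians of 8 and 4 sites, 7.14% and 11.7% met it, beside 24 of 38 and 16 of 24 members of that kind. For H3, which forms the tetramer core with H4, CC inside the genes was 97.9% and 96.8%, and the lowest member with any covered site stood at 93.5% and 83.3%. For H4 it was 95.1% and 96.6%, and over H4 coding sequence 99.5% and 100%. H3 coding sequence held only CC, in 72 calls at 11 sites and 38 calls at 7 sites, of 570 CpGs. The H1 linker histone genes stood at 86.8% and 88.6%, and their coding sequence without Hist1h1t at 100% and 99.5%. The H2A genes stood at 86.1% and 72.0%, and the H2B genes, which include Hist1h2be and Hist1h2bc, at 47.7% and 44.7%. Over coding sequence H2A stood at 96.7% and 79.4% and H2B at 87.3% and 84.4%, and without the germ cell genes H2A stood at 99.5% and 100% and H2B at 88.8% and 100%. These replicate 2 values without the germ cell genes rest on 3 and 4 sites. Within 1 kb CC was highest around the H3 genes, at 96.8% and 95.5%, and lower around the H4 genes at 90.7% and 87.3%, the H2A genes at 87.2% and 87.9%, the H2B genes at 83.8% and 85.5% and the H1 genes at 81.1% and 78.6%. Leaving out the germ cell genes raised the H1 flanks to 93.8% and 87.2%, the H2A flanks to 92.3% and 89.4%, above those of H4, and the H2B flanks to 88.4% and 86.9%. Members of different classes can share flank sites, so these groups are not independent. By position, the first chromosome 13 cluster had CC inside members at 99.3% over 27 sites and 100% over 6, of 838 CpGs. The second cluster had 99.4% over 36 sites and 100% over 6, of 205 CpGs. In the third cluster, which holds the long gene models of Hist1h2be, Hist1h2bc, Hist1h2ac and Hist1h1d, CC was 64.5% and 66.3%.

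Hist1h1c, the gene of linker histone H1.2, had CC at 100% over 345 calls at 39 sites in replicate 1 and over 89 calls at 15 sites in replicate 2. Hist1h1a had CC at 100% and 98.0% over 29 and 8 sites. Neither gene held an MM call in either replicate. Hist1h4d, an H4 gene, had CC at 100% over 122 calls in replicate 1 and 93 in replicate 2. The 250 bases before Hist1h1c and Hist1h4d are shown with CpGs in capitals, because they mark the unmodified state most members shared.
Hist1h1c, chr13:23738558-23738807, plus strand: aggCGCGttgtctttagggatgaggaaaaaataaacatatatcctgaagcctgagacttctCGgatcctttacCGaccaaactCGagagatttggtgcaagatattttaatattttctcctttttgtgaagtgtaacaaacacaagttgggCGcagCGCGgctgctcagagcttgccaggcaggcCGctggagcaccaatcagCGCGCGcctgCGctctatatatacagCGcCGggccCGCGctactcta
Hist1h4d, chr13:23581348-23581597, plus strand: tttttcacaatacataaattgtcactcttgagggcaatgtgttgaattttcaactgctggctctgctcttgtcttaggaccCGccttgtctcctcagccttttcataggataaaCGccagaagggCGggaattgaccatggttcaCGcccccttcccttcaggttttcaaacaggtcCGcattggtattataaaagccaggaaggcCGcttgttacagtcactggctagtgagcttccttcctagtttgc
Of the 17 CpGs before Hist1h1c, 5 were covered in replicate 1 and 3 in replicate 2, and of the 6 before Hist1h4d, 6 and 1 were. The calls at them, 49 and 51 in replicate 1 and 17 and 6 in replicate 2, were all CC. The covered CpGs before Hist1h1c lay at bases 4 to 84, counted from 1 at the left end, so those nearer its start were not read.

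Among the 15 members with at least 5 covered sites in both replicates, the 5 with the lowest CC inside the gene were Hist1h2be, Hist1h2bc, Hist1h2ac, Hist1h1d and Hist1h2aa. The first 4 are annotated over 2.48 to 37.5 kb. Hist1h2be had CC at 41.4% [39.5 to 43.3] and 40.3% [36.3 to 44.4], but its coding sequence begins 35.2 kb after the annotated start and held no covered site. Within 1 kb of that coding sequence CC was 99.4% over 43 sites and 99% over 15 sites. Between 1 and 5 kb from it CC was 38.2% and 28.6%, and farther away 28.6% and 27.8%. The modified calls of this gene therefore lay away from its coding sequence, and the DNA next to it was as unmodified as the short members.

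Hist1h1d, an H1 gene, showed the same split. CC was 79.2% and 83.2% over the whole gene and 100% over its coding sequence in both replicates, at 17 and 16 sites. Before the coding sequence, in the first 500 bp of the gene model, CC was 31.0% over 3 sites in replicate 1, and past 5 kb from the start it was 14.1% over 9 sites. Hist1h2bc, an H2B gene, had CC at 45.6% and 35.8% over the gene. From 500 to 1000 bp after its start CC was 97.5% and 91.7%, from 1 to 2 kb 82.2% and 77.1%, from 2 to 5 kb it was 16.3% and 7.89%, and from 5 to 10 kb 23.8% and 21.6%. Hist1h2ac, the H2A gene on its other side, had CC at 53.2% and 36.2%, with 88.3% and 52.9% from 500 to 1000 bp and 19.0% and 12.0% from 1 to 2 kb, and 22.2% at the 1 site past 2 kb in replicate 1. From 500 bp onward CC in both genes therefore dropped with distance, apart from the last bin of each in replicate 1 and of Hist1h2bc in replicate 2, although the replicate 2 values rest on 2 to 8 sites each. The first 500 bp of Hist1h2bc did not follow this order, with CC at 46.7% over 7 sites in replicate 1 and no covered site in replicate 2.

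Hist1h2bc was the one member outside the germ cell genes with MM calls at several coding CpGs. Its 4 covered coding CpGs lay next to each other, were covered in replicate 1 only and gave 15 MM and 5 CC of 23 calls. Their converted windows had no identical copy elsewhere in the genome, but near-identical copies were not sought. Neighbouring CpGs can share read pairs, so these calls are not independent. Replicate 2 had no call there, so the value has no replicate check. The DNA between the starts of Hist1h2ac and Hist1h2bc, next to these sites, held only CC, in 63 calls at 6 sites and 36 calls at 4 sites.
Hist1h2ac/Hist1h2bc, chr13:23683949-23684198, plus strand: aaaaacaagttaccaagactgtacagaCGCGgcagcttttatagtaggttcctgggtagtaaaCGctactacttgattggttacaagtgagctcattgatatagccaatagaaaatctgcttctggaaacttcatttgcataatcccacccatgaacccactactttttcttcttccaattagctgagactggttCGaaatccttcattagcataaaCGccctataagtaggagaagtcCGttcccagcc
The sequence is shown for that contrast, with CpGs in capitals, and it holds the octamer, CCAAT and TATAAA letters.

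The highest HC/CH levels inside the gene among the 15 members with at least 5 sites in both replicates belonged to these longer genes and to Hist1h2aa. HC/CH was 6.47% [3.0 to 11.9] and 10.6% [3.55 to 23.1] in Hist1h2ac and 4.32% [3.03 to 5.96] and 5.66% [2.62 to 10.5] in Hist1h2bc. It was 5.13% and 3.21% in Hist1h2be, 3.64% and 11.3% in Hist1h2aa, and 1.82% and 2.10% in Hist1h1d. In Hist1h2ac 1 site gave 4 of the 9 HC/CH calls in replicate 1, and without the site with the most HC/CH calls in each replicate its level was 3.85% and 7.89%. The same omission gave 2.04% and 8.33% in Hist1h2aa and 1.38% and 0.866% in Hist1h1d, so the order of these genes rests on single sites. The median over the 31 members with at least 5 sites in replicate 1 was 0%, beside 4.40% for all protein-coding genes, and in replicate 2 it was 2.0% over 15 members beside 3.86%. For HM/MH, uncorrected, the member medians were 0% in both replicates, beside 3.86% and 2.43%. Among single-exon genes of at most 2 kb the HC/CH medians were 2.66% and 2.06%, and the HM/MH medians 2.44% and 1.01%. Members of that kind had medians of 0% for both states. In the first 500 bp from the TSS the medians of both states were 0% for members and for all genes alike.

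The members outside the Hist1h and Hist2h clusters were read in part. Hist4h4, a lone H4 gene, had CC at 89.6% and 94.2% over the gene and 99.1% and 100% over its coding sequence, while within 1 kb CC was 79.8% and 72.3%. Before its start, 8 of 8 CpGs in replicate 1 and 6 of 8 in replicate 2 were covered and held only CC. Hist3h2a, an H2A gene, had CC at 88.0% and 83.3%, and HC/CH at 0.718% [0.148 to 2.08] over 42 sites in replicate 1 and 9.26% [3.08 to 20.3] over 8 sites in replicate 2. These 2 HC/CH values cover different parts of the gene, since its first 500 bp held 20 covered CpGs in replicate 1 and none in replicate 2. Every HC/CH call lay 1 to 2 kb after the start. There HC/CH was 1.92% of 156 calls in replicate 1, and 17.9% of 28 calls, at 4 CpGs, in replicate 2. Neighbouring CpGs can share read pairs, so a replicate difference beyond counting error was not shown for Hist3h2a. Hist3h2ba, the H2B gene beside it, had CC at 98.4% in replicate 1 and no covered site inside in replicate 2. Around Hist3h2ba, CC was 76.9% and 68.4%, the lowest among the 21 members with at least 10 covered flank sites in both replicates.

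**Figure D3:**
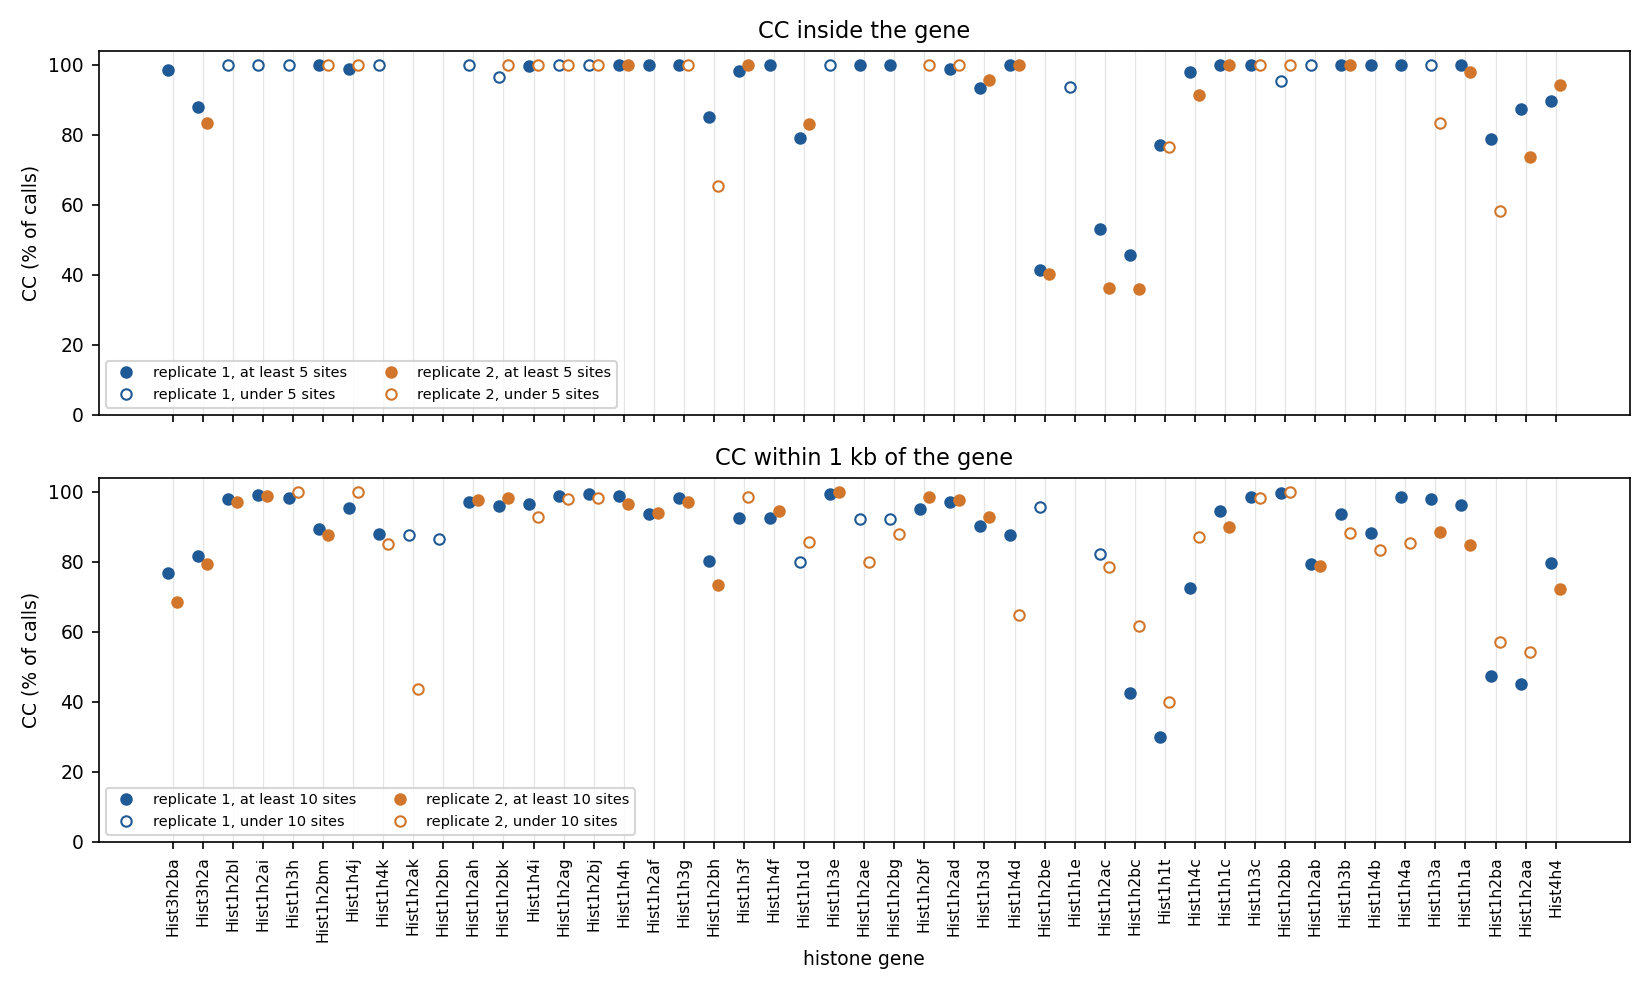
CC as a share of calls (%) inside (top) and within 1 kb of (bottom) each member with a covered site, ordered by position, with filled points for at least 5 (top) or 10 (bottom) sites and open points for fewer. Most members lie near 100% inside the gene; Hist1h2be, Hist1h2ac and Hist1h2bc lie between 35.8% and 53.2%, and the flanks of Hist1h1t, Hist1h2ba and Hist1h2aa between 29.9% and 57.1%.

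The male germ cell genes had less CC than the other members in coding sequence and within 1 kb, but not over whole genes. In coding sequence CC was 85.3% [80.1 to 89.6] and 75.3% [64.2 to 84.4], against 98.5% [97.8 to 99] and 99.8% [98.8 to 100] in the other members. Over Hist1h1t, Hist1h2aa and Hist1h2ba together, CC inside the genes was 79.5% [74.1 to 84.3] over 33 sites in replicate 1 and 72.0% [60.9 to 81.3] over 15 sites in replicate 2, and over the other members, long gene models included, it was 70.5% and 70.6%. HC/CH inside the 3 germ cell genes was 6.56% [3.87 to 10.3] and 8.54% [3.5 to 16.8]. These 2 values rest on different genes. Hist1h1t gave 14 of the 17 HC/CH calls in replicate 1, and Hist1h2aa gave 6 of the 7 in replicate 2. Within 1 kb of them CC was 38.1% [34.1 to 42.2] over 54 sites and 45.0% [33.8 to 56.5] over 13 sites, whereas the flanks of the other members stood at 90.2% and 87.2%. HC/CH in those flanks was 6.59% [4.70 to 8.93] and 7.5% [2.80 to 15.6], against 1.32% and 1.15% around the other members, and HM/MH was 5.03% and 7.5%, against 0.609% and 0.512%. The difference from the other members was not tested. The intervals do not allow for calls that share a read pair, or for differences between genes and between sites. Hist1h2ba and Hist1h2aa share most of their flank sites, and in replicate 2 the germ cell flanks gave 80 calls in all. After correction by the spike-in call rates HM/MH in these flanks was 3.17% and 7.39%, against 0.359% and 0.441% around the other members. Within 1 kb of all protein-coding genes the uncorrected values were CC 54.1% and 51.8%, HC/CH 3.83% and 3.75%, and HM/MH 2.73% and 2.11%. Corrected HM/MH there was 1.24% and 1.87%. The coding sequences of these 3 genes are also less CpG-dense, with 3.67 CpGs per 100 bases in Hist1h1t, 6.46 in Hist1h2aa and 7.35 in Hist1h2ba, beside a median of 10.9 in the other members. The part of CpG density in the difference was not tested.

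Hist1h1t (ENSMUSG00000036211.4, chr13:23695814-23696725, plus strand) lies within the third chromosome 13 cluster. CC inside it was 77.2% at 20 sites of replicate 1 and 76.5% at 3 sites of replicate 2, and within 1 kb it was 29.9% and 40.0%. MM in its flanks was 46.1% and 37.5%. HC/CH inside was 8.19% in replicate 1, from 14 of 171 calls, and no HC/CH was called among 17 calls in replicate 2, where the floor is 17.6%, so a level like that of replicate 1 was not detectable. Its upstream sequence is shown with CpGs in capitals, for comparison with that of Hist1h1c.
Hist1h1t, chr13:23695564-23695813, plus strand: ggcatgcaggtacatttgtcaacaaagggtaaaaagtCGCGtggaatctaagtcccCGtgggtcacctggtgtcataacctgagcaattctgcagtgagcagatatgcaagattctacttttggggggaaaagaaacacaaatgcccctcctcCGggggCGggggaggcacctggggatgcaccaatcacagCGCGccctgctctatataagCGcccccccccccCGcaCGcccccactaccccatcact
It holds 10 CpGs, of which 3 were covered in replicate 1 and none in replicate 2. The 3 lie at bases 38, 40 and 57, counted from 1 at the left end, and the CpGs nearer the start were not read. Of 26 calls at these 3 CpGs 38.5% were CC, 46.2% MM and 7.69% HM/MH.

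Hist1h2ba and Hist1h2aa (TH2B and TH2A) are arranged head to head and form a cluster of their own at chr13:23933773-23934851. Their 1 kb flanks share most sites, so their flank values are not independent. Inside Hist1h2ba CC was 78.8% over 5 sites and 58.3% over 2 sites, and inside Hist1h2aa 87.3% over 8 and 73.6% over 10. Around them CC was 41.5% [36.6 to 46.4] over 37 sites in replicate 1 and 50.0% [33.8 to 66.2] over 7 sites in replicate 2, with HC/CH at 7.56% [5.19 to 10.6] and 10.0% [2.79 to 23.7]. The 300 bases at the centre of the 305 that separate their starts are shown with CpGs in capitals.
Hist1h2ba/Hist1h2aa, chr13:23934160-23934459, plus strand: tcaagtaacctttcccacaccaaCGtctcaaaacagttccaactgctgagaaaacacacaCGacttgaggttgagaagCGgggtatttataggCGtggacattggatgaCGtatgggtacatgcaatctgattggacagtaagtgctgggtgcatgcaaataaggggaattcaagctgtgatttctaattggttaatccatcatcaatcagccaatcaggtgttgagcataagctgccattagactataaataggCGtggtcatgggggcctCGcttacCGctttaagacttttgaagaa
All 8 CpGs were covered in replicate 1, and CC was 86.5% of 89 calls. In replicate 2, 4 were covered, with CC at 64.0% of 25 calls and HC/CH at 16.0%. The 4 CpGs covered in replicate 2 all lay on the Hist1h2ba side of the window, so its other side was read in replicate 1 only. Counted from 1 at the left end, the CpG at base 79 gave 2 HC/CH calls of 13 in replicate 1 and 2 of 7 in replicate 2, and the CpG at base 61 gave 2 of 6 in replicate 2. The CpG at base 94 gave 4 MC/CM calls of 14 in replicate 1 and 1 HM/MH call of 6 in replicate 2. No hmC was called at the other CpGs of the window in replicate 1.

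Of 13 head-to-head pairs with starts under 1 kb apart, 12 join an H2A and an H2B gene and 1 joins Hist1h2bh and Hist1h3f. Between the starts, 8 pairs had covered sites in each replicate. In the 7 covered pairs other than the germ cell pair, CC was 99.5% of 816 calls in replicate 1 and 99.5% of 220 calls in replicate 2. No HC/CH was called in them, which, at the same floor, allows a level of up to 0.368% in replicate 1 and 1.36% in replicate 2, and the lowest pair stood at 98.9% and 98.5%. The germ cell pair stood at 86.5% and 64.0%. An unmodified pair is shown for comparison, Hist1h2ag and Hist1h2bj, which gave CC at 99.5% of 193 calls and 100% of 30 calls.
Hist1h2ag/Hist1h2bj, chr13:22042945-22043213, plus strand: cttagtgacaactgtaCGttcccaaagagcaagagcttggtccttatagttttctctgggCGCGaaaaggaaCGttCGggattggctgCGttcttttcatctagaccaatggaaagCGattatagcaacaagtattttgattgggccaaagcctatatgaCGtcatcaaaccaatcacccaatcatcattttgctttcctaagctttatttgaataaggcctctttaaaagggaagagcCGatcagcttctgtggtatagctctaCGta
It holds 10 CpGs in 269 bases, in capitals, against 8 in the 300 bases of the germ cell pair. Both sequences hold CCAAT, and the octamer letters are in the germ cell pair only.

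Away from the genes CC dropped within 1 to 2 kb. In the first 250 bp outside the members CC was 93.3% and 94.2%, from 250 to 500 bp 89.4% and 87.4%, from 500 to 750 bp 78% and 76.7%, and from 750 to 1000 bp 70.7% and 66.9%. From 1 to 2 kb it was 44.1% and 40.3%. Over the same distances HC/CH was 0.909% and 0.944% in the first 250 bp and 5.42% and 4.82% from 1 to 2 kb. All protein-coding genes showed the same order at lower CC, with 65.2% and 63.9% in the first 250 bp and 29.3% and 26.0% from 1 to 2 kb. Past 3 kb the bins held 7 to 54 sites and CC scattered between 6.98% and 76.7%. Leaving out sites in or within 1 kb of other protein-coding genes moved CC from 2 to 5 kb from 47.6% to 40.6% in replicate 1 and from 39.3% to 37.8% in replicate 2. Upstream alone, CC went from 45.2% and 47.0% at 1 to 2 kb to 61.3% and 56.7% at 2 to 5 kb. Downstream it went from 43.5% and 37.25% to 38.4% and 29.2%. With the sites near other genes left out, CC at 2 to 5 kb was 49.7% and 52.5% upstream and 35.6% and 29.9% downstream.

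**Figure D4:**
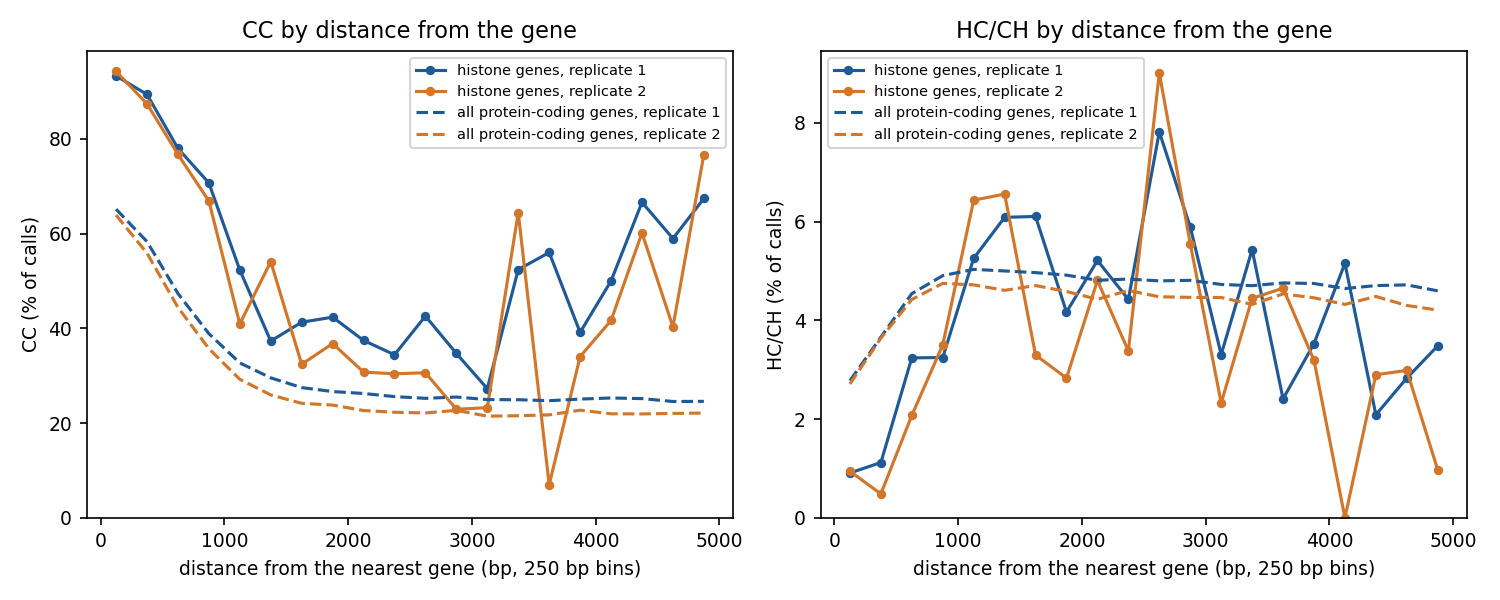
CC (left) and HC/CH (right) as a share of calls (%) against distance from the nearest gene in 250 bp bins (x axis, bp), with histone genes as solid lines with points and all protein-coding genes dashed, 1 colour per replicate. CC around histone genes falls from 93.3% and 94.2% in the first bin, and bins past 3 kb hold few sites in replicate 2 and scatter widely.

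The flanks differed by side. Within 1 kb upstream CC was 92.6% and 90.1% and HC/CH 0.919% and 1.10%, while within 1 kb downstream CC was 80.3% and 80.4% and HC/CH 2.49% and 1.69%. Over all protein-coding genes CC was 70.5% and 68.4% upstream but 25.5% and 22.5% downstream. Because the members lie close together, a site downstream of one can lie near the promoter of another. By strand, hmC against C in the flanks lay on the sense strand of the nearest member in 85 calls and on the antisense strand in 70 in replicate 1, and in 18 and 15 in replicate 2. The hmC against mC calls there numbered 32 on the sense and 51 on the antisense strand in replicate 1, and 10 and 8 in replicate 2. Inside members the counts of hmC against C were 115 and 115, and 29 and 27, and those of hmC against mC were 53 and 63, and 8 and 6.

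Among flanks with at least 10 covered sites in both replicates, the highest HC/CH was around Hist3h2ba, at 4.49% [2.77 to 6.86] and 6.33% [2.09 to 14.2]. Hist1h2bh (H2B) followed at 2.28% and 3.81%, Hist1h2ab (H2A) at 1.55% and 2.35%, Hist1h2bm (H2B) at 1.53% and 3.75%, and Hist1h3d (H3) at 1.23% and 1.02%. The order of these genes was not tested. HM/MH was highest around Hist1h2bh, at 2.28% and 1.90%, then Hist1h3d at 1.64% and 1.02%, with Hist3h2ba at 1.80% and 0%. The lowest CC after Hist3h2ba was around Hist1h2ab, at 79.3% and 78.8%, and Hist4h4. The flanks of the germ cell genes were below 10 sites in replicate 2 and so are not in this order.

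Between the members of the chromosome 13 clusters the DNA was largely methylated. From 1 to 2 kb from the nearest member CC was 45.2% and 43.8%, and past 10 kb it was 15.5% and 12.5% with MM at 58.4% and 60.5%. Over all of chromosome 13 CC was 20.2% and 17.5%. HC/CH between members was 6.34% and 5.67% from 1 to 2 kb and 4.94% and 4.53% past 10 kb, beside 3.94% and 3.44% over chromosome 13. HM/MH between members was 3.39% [2.99 to 3.83] and 2.17% [1.53 to 2.99], and over the genome 4.0% and 2.47%. Corrected by the spike-in call rates, it was 1.01% and 1.81% between members and 1.30% and 2.11% over the genome, so the order of the replicates turned. In the largest cluster, with 524 and 203 sites between its 29 genes, CC was 27.7% and 26.9%, and in the first cluster 22.5% and 18.6%. The first cluster spans chr13:21715763-21837530 and held no covered site after 21753193, so its values come only from the part before that.

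Within 1 kb of the TSS, CC was at least 80% at 39 of 45 members with at least 5 sites in replicate 1 and 36 of 42 in replicate 2, beside 52.7% and 57% of all protein-coding genes. Hist1h1t, Hist1h2aa, Hist1h2ba, Hist1h2be and Hist1h2ab were below 80% in both replicates. For Hist1h2be this window lies at the start of its long transcript, away from the coding sequence. Among 14 genes listed as replication-independent histones, many of which are also made outside S phase or are made in single tissues, 7 of 13 and 6 of 8 reached 80%. Hils1 and H1fnt, which encode spermatid linker histones, were low in both replicates, with CC at 19.8% and 10.8%, and 10.3% and 13.2%. H1foo, the oocyte linker histone, was at 6.40% in replicate 1. H3f3b, one of the pair of H3.3 genes, was at 34.9% over 11 sites and 27.3% over 2, whereas H3f3a, the other, was at 93.4% over 26 and 100% over 3. Of 19 genes for factors of histone transcription, mRNA processing and chromatin assembly, 16 of 19 and 15 of 17 reached 80%. Lsm11, a subunit of the U7 snRNP, lay just below in both replicates at 79.7% and 76.1%, and Zfp473, which acts in histone mRNA processing, had 24.4% over 16 sites and 0% over 3.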

How the data were processed

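Libraries of 2 E14 mESC cultures were read by SCoTCH-seq. Per the methods, the authors trimmed reads with Cutadapt 4.6, used BSBolt for alignment to GRCm38 and Picard 3.1.1 for duplicates, called a CpG state per read pair, and discarded sites with under 5 calls, with multiple calling errors or in blacklisted regions. The deposited count of calls per state and site was used. The deposited percent, by the authors' description that count over the depth of the site with no spike-in correction, was not used.

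The members and gene lists were chosen with earlier results of these data known. Members, coding sequences and TSSs came from GENCODE vM21. Calls were pooled per region and replicate, and since the series has 1 group of 2 replicates nothing was tested between samples. Values are given per replicate, with mean ± SD (n = 2) and exact Clopper-Pearson 95% intervals from SciPy 1.17.1. Genes with at least 5 covered sites were counted at CC of at least 80%. Named were the germ cell genes, every Hist3h and Hist4h member, the members without covered sites, among members with at least 5 covered sites in each replicate the 5 with the lowest CC and the 5 with the highest HC/CH inside, and, among members with at least 10 flank sites in each replicate, the 5 highest for HC/CH, 3 highest for HM/MH and 3 lowest for CC, ranked on the less extreme replicate. Hist1h1c, Hist1h1a and Hist1h4d, the pairs and the named genes of the other lists were chosen after their values were seen. Scripts used Python 3.11.15, NumPy 2.4.6, pandas 2.3.3 and Matplotlib 3.10.9 and were tested on simulated data. Where the labels and methods differ, in the share of serum, no value is given. Alternatives were per-site means, a minimum of 10 calls, correction by the spike-in call rates, shared sites, single-copy windows, other flanks, cluster gaps and thresholds, and leaving out each replicate. Restricting to coding sequence, leaving out Hist1h2be, leaving out the germ cell genes and leaving out the site with the most HC/CH calls were chosen after seeing the data.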

Additional observations from a re-analysis of the deposited data

How the results depend on the processing

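Inside members, the value depends on the gene model. CC moved from 70.7% to 96.6% over coding sequence, 84% without Hist1h2be and 70.5% without the germ cell genes, HC/CH from 2.75% to 1.12%, 2.09% and 2.57%, and HM/MH from 1.03% to 0.221% over coding sequence. With a minimum of 10 calls CC, HC/CH and HM/MH were 67.8%, 1.92% and 1.53% inside, and 89.7%, 1.21% and 0.461% within 1 kb, where the unaltered values are 86.4%, 1.5% and 0.810%. Correction by the call rates gave 71.4%, 2.57% and 0.476% inside, CC of 87.4% and HM/MH of 0.601% within 1 kb, and HM/MH of 1.41% between members, down from 2.78%. Only sites covered in both replicates gave CC of 68.8% and HC/CH of 2.88% inside, HM/MH of 0.697% within 1 kb, and CC of 27.7% between. Per-site means gave CC of 71.6% inside and single-copy windows 70.5%. A flank of 500 bp gave CC, HC/CH and HM/MH of 91.8%, 0.880% and 0.499%, a flank of 2 kb 77.3%, 2.24% and 1.19%, and leaving out the germ cell genes 88.7%, 1.23% and 0.560%. Between members, a minimum of 10 calls gave CC of 28.2% and HC/CH of 5.99%, a cluster gap of 50 kb CC of 30.9%, and one of 500 kb CC of 40.5% and HC/CH of 3.68%. The cause of these moves was not tested beyond the sites each setting keeps.

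The count of members with CC of at least 80% was 10 of 15. It was 11 of 15 without replicate 1, 25 of 31 without replicate 2, 5 of 6 over coding sequence and 1 of 1 at a minimum of 10 calls. The number tested thus changed in each of these but the first. Over 15 results, 40 alternative values moved by less than the replicate spread, or by under 1.5 times for the count, and 43 moved by more. The levels with a replicate left out are not among them, since with n = 2 they cannot move a mean by its SD. No paired analysis was possible because there is 1 group and no test. Depth limits the values of single members: replicate 2 had at least 5 covered sites inside 15 of 67.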
